A study of Homo sapiens and Mus musculus with 20 samples.

Results

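Open chromatin was examined at 10 genes of the TGF-β pathway in SW480 cells, an established human colorectal adenocarcinoma line. The genes were TGFB1, TGFBR1, TGFBR2, SMAD2, SMAD3, SMAD4, SMAD6, SMAD7, SKIL and TGIF1. Every accessible region that overlapped one of these genes, or the 20 kb on both sides of it (GENCODE 44, GRCh38), was taken. This gave 206 regions of the 252173 found by merging the peaks of 12 ATAC-seq libraries. In ATAC-seq, Tn5 transposase cuts open chromatin and attaches sequencing adapters to it, so that peaks of cut fragments mark accessible DNA. One experiment set 3 libraries from cells given 10 mM sodium propionate (NaPr) against 3 from untreated cells, and the other, with a later date in the labels, set 3 libraries from cells given 1 mM sodium butyrate (NaBu) against its own 3 untreated libraries. Treatment lasted 12 to 16 h and 50000 viable cells entered each reaction. All 12 libraries come from 1 cell line with no genetic change made to it, and the labels do not say whether replicates were separate cultures, so p-values measure the spread between these libraries, which may be technical.

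TGF-β signals through a pair of membrane kinases. The ligand, encoded by TGFB1, binds the type II receptor TGFBR2, which then activates the type I receptor TGFBR1. That kinase phosphorylates SMAD2 and SMAD3, which join SMAD4 and enter the nucleus to regulate transcription. SMAD6 and SMAD7 block the receptors or compete with the signalling SMADs, and SKIL (also called SnoN) and TGIF1 are co-repressors that dampen SMAD-driven transcription. In the colon the pathway restrains epithelial growth, and its parts are often damaged in colorectal cancer.

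The lists held 108442 to 144398 peak intervals per library, and between 90 and 113 of the 206 regions had a peak in any single library. Read totals were not analysed here. Relative depth, taken as the lowest background recovered from the peak scores, ran from 0.936 to 2.35 tags in the NaPr experiment and from 2.11 to 3.03 in the NaBu experiment. The starts of 8 of 9 epithelial marker genes, EPCAM, KRT8 and CDX2 among them, had a peak in all 12 libraries, and CDX1 had none. Of 9 markers of other cell types, 5, with PTPRC, CD3E, PECAM1 and CDH5 among them, had no peak at the start in any library, while CD14, COL1A1 and COL1A2 had one in all 12. Accessibility is given below as a percentile rank: the peaks of a library are ordered by their −log10 p, 100 is its strongest region, and 0 means that no peak is listed. The weakest peak listed had a −log10 p of 3.37 to 6.53 in the NaPr experiment and 7.25 to 9.38 in the NaBu experiment. An unlisted peak therefore does not mean the same in both experiments, and need not mean closed chromatin. Changes are differences of mean rank in percentile points with their standard error (SE), and a region was called where limma's Benjamini-Hochberg adjusted p over all regions was below 0.05. Ranks are relative, so a gain or loss shared by all regions of a library cannot be seen.

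NaPr changed few of these regions. Of the 113 that could be tested, 1 was called higher and 3 lower, which is 3.54% against 5.32% of all 124067 regions tested (3.1% higher and 2.22% lower). The gain lay in an intron of SMAD3, and the losses were at the starts of SMAD3 and TGIF1 and inside SMAD7. The median change was 0.0907 percentile points at the member regions and 0.526 at all regions. All 3 treated libraries lay below all 3 untreated ones at 12 member regions and above them at 18, where 11.6% and 14.6% of all regions did so. These calls rest on few libraries. With NaPr replicate 2, NaPr replicate 3 or untreated replicate 3 left out, no member region was called, and with any other library left out 1 or 2 were. Ranking by fold enrichment called none of 124067 regions, with 20921 at an unadjusted limma p below 0.05. On recovered summit tags at the 65 member regions with a peak in all 6 libraries, the count was 7 higher and 0 lower with tags scaled by the background, which moves the median of all regions by 0.205 on the log2 scale, and 5 higher and 16 lower with tags scaled by their median. Of all 65178 such regions, 13.5% were higher and 1.1% lower with the first scaling and 12.2% and 19.9% with the second.

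NaBu changed many more. Of 123 member regions tested, 30 were called higher and 30 lower, which is 24.4% in each direction and 48.8% in all. Of all 123730 regions tested, 24.0% were called higher and 13.1% lower, 37.1% in all. The median change was −1.41 percentile points at the member regions and 2.92 at all regions. From nearly equal numbers of summits, NaBu libraries list more peak intervals than their controls (126008 to 128955 against 108442 to 120971). This lifts the rank of every region present. When ranks were instead taken over all tested regions, with absent peaks tied at the bottom, 22 member regions were higher and 38 lower, against 19.1% higher and 18.1% lower of all regions, and the medians were −2.79 and 0.423. Other settings called more member regions higher than lower. Ranked by fold enrichment, 22 member regions were higher and 15 lower, against 16.3% and 10.2% of all regions. On regions built from 250 bp on both sides of each summit, 29 were higher and 16 lower, against 27.3% and 11.7% of all regions. All 3 NaBu libraries lay below all 3 untreated ones at 36 member regions and above them at 38, where 17.3% and 31.3% of all regions did so. Leaving out any 1 of the 6 libraries left 44 to 55 member regions called. On summit tags scaled by the background, which can be set against each other at the 75 member regions with a peak in all 6 libraries, 16 were higher and 33 lower, with a median of −0.25 on the log2 scale, against 24.0% higher, 28.8% lower and a median of −0.016 for all 72559 such regions. On that measure the start regions of 8 genes were lower (log2 changes from −0.25 at TGFBR2 to −1.14 at SKIL), all but SMAD7 of the 9 that have one, where the ranks called SMAD3 and TGIF1 lower and SMAD7 higher. The start regions of all protein-coding genes were mostly lower on tags too, with 59.0% of 12315 lower and 4.45% higher.

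**Figure D1:**
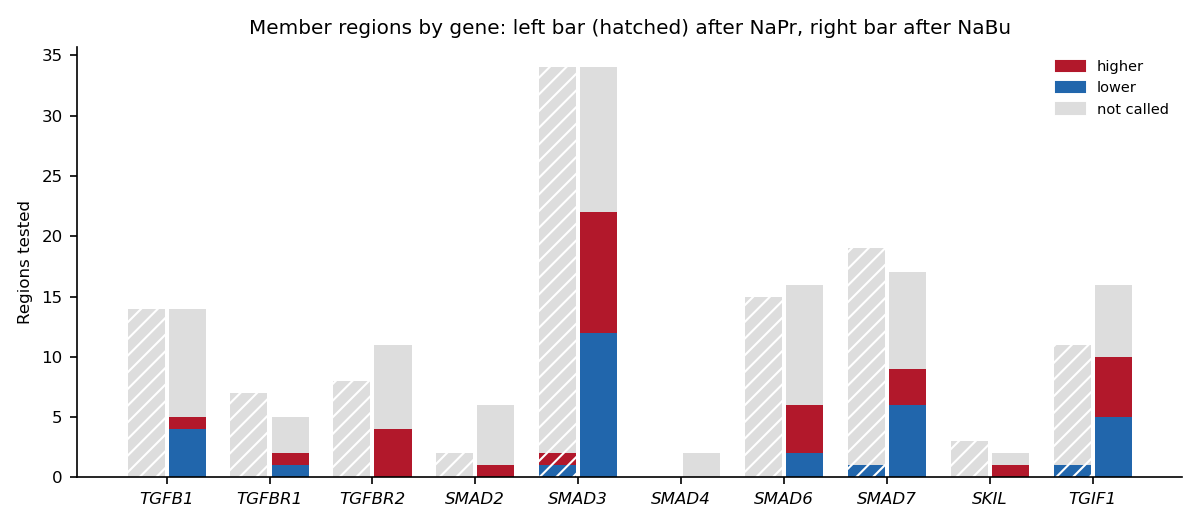
Bars give the number of regions tested at each of the 10 genes (vertical axis, regions), split into higher (red), lower (blue) and not called (grey) by limma. The hatched left bar of each pair is after NaPr and the plain right bar after NaBu. SMAD3 has the most regions, 34 tested for each compound, with 2 called after NaPr and 22 after NaBu.

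Near the genes' starts, regions called lower after NaBu outnumbered those called higher on ranks of −log10 p. Ranked by fold, which was counted only at the starts themselves, losses did not outnumber gains. Within 5 kb of the gene's own start (the first base of its Ensembl canonical transcript), 2 of 26 tested member regions were higher and 10 lower. For all regions that close to a protein-coding start, 14.6% were higher and 20.1% lower. From 5 to 20 kb away, 6 of 22 member regions were higher and 6 lower, against 26% and 11.3% of all regions, and beyond 20 kb, 22 of 75 were higher and 14 lower, against 26.7% and 11.2%. These bands are not alike. Member distances are to the gene's own canonical start, so far member regions can lie at another start. Distances of all regions are to any protein-coding start. SMAD3 and TGIF1 supplied 9 of the 10 losses within 5 kb. Ranked by fold, 1 of 12 member regions within 1 kb of a canonical start was higher and 0 lower, against 1 and 3 on −log10 p. At other starts of these genes, 5 of 30 were higher and 2 lower by fold, against 6 and 10. Of the start regions of all protein-coding genes, 13.2% were higher and 8.98% lower by fold. The whole band within 5 kb was not counted by fold. A loss in it, 2.92 kb upstream of the SMAD3 start, was still called by fold (−6.73, adjusted p = 0.0178). After NaPr, 2 of 20 member regions within 5 kb were lower and none higher, against 4.79% and 2.1% of all regions that close.

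**Figure D2:**
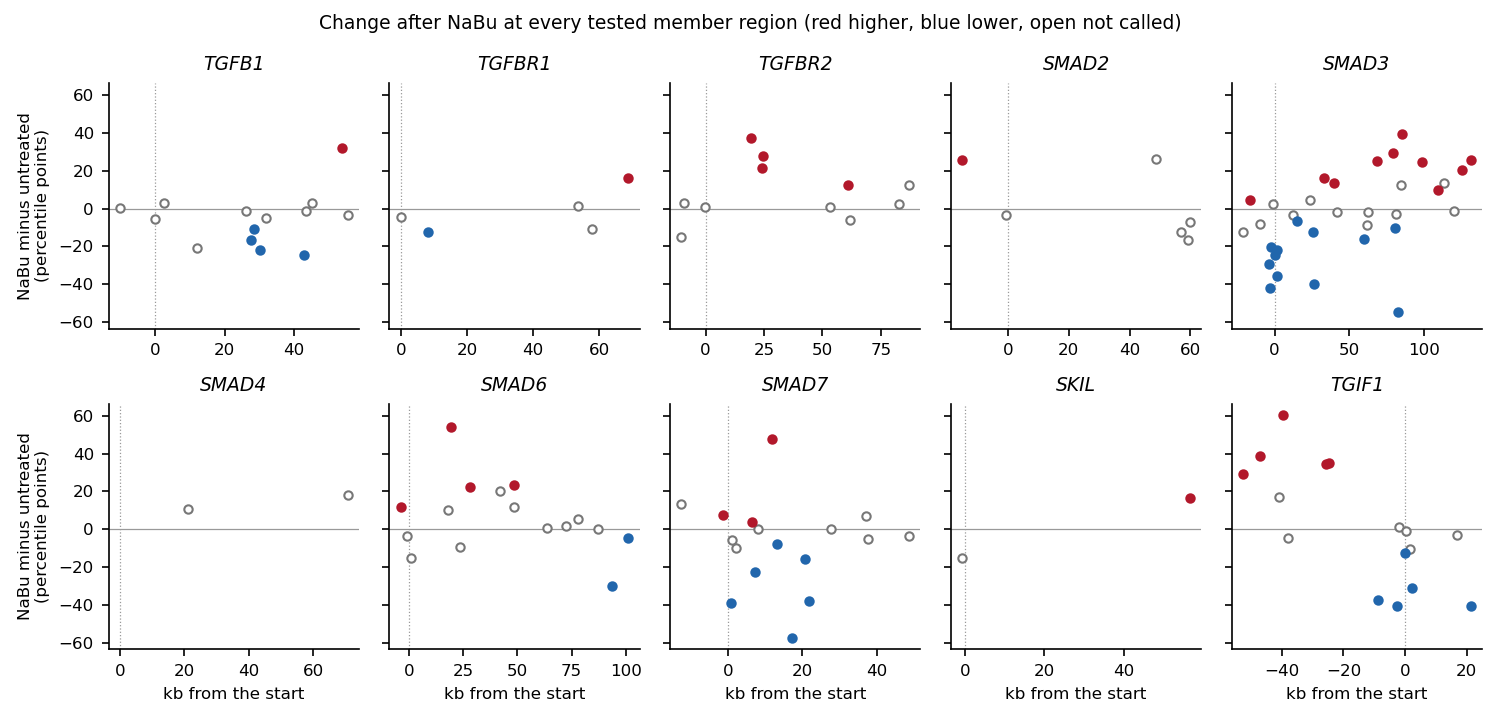
Each point is a region tested after NaBu, placed by the distance of its summit from the gene's start (horizontal axis, kb, negative upstream) and by its change in rank (vertical axis, percentile points), with red for higher, blue for lower and open circles for regions not called. Around the start of SMAD3, 6 of 7 tested regions are lower, and at TGIF1 the higher regions lie 24.6 kb or more upstream of the start.

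Of the ligand gene TGFB1 (chr19:41301587-41353922, minus strand), 14 of 21 regions were tested after each compound. None was called after NaPr, and after NaBu 1 was higher and 4 lower. The region at the start (chr19:41352361-41354457), which also holds a start of the neighbouring gene TMEM91, ranked 81.0, 79.9 and 78.3 untreated and 85.7, 77.0 and 78.4 with NaPr. In the other experiment it ranked 80, 75.6 and 76.3 untreated and 80.4, 73.7 and 61.3 with NaBu. The groups overlapped in both experiments, and the changes were 0.607 ± 2.44 (SE, adjusted p = 0.906) and −5.46 ± 4.32 (adjusted p = 0.338). On summit tags scaled by the genome-wide background the NaBu change was −0.55 on the log2 scale (adjusted p = 0.00627). The losses inside the gene were 3 intronic regions 27.5, 28.6 and 30.2 kb from the start, of −16.5, −10.5 and −22.1 percentile points. The last of these also lies in the body of CCDC97 and had no peak in any library of the NaPr experiment. The gain (32.2 ± 4.88, adjusted p = 0.00186) was at the start of HNRNPUL1, 53.9 kb from the TGFB1 start, and the fourth loss at the start of CCDC97, so both belong to neighbouring genes.

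TGFBR1, the type I receptor gene (chr9:99104038-99154192), had 2 calls after NaBu and none after NaPr. Its start region ranked 98.1, 96.6 and 95.8 untreated and 96.3, 97.2 and 95.1 with NaPr, near the top of each list. It ranked 86.5, 85.9 and 77.6 untreated and 86.6, 75.6 and 74.5 with NaBu. Neither change was called (−0.637 ± 0.888, adjusted p = 0.694, and −4.44 ± 3.52, adjusted p = 0.340), although summit tags scaled by the background were −0.55 on the log2 scale after NaBu (adjusted p = 0.0135). After NaBu 1 intronic region 8.17 kb past the start fell by 12.6 percentile points (adjusted p = 0.0179), and 1 region 68.8 kb from the start, beyond the gene's end, rose by 16.2 (adjusted p = 0.0366).

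TGFBR2, the type II receptor gene (chr3:30606601-30694142), had regions inside the gene that were called higher after NaBu. Its start region was among the strongest, at 96.7, 97.6 and 97.3 untreated and 95.4, 96.3 and 95.4 with NaPr, and at 88.7, 91.0 and 89.8 untreated and 87.9, 90.2 and 93.5 with NaBu. All 3 NaPr libraries lay just below their controls (−1.49 ± 0.745, adjusted p = 0.253), and the NaBu groups overlapped (0.646 ± 1.40, adjusted p = 0.735). Summit tags scaled by the background were −0.25 on the log2 scale after NaBu (adjusted p = 0.0381). Of 11 regions tested after NaBu, 4 were higher and none lower, against 24.0% and 13.1% of all regions. With ranks over all tested regions 2 were higher and none lower, against 19.1% and 18.1% of all regions. The largest gain was intronic, 19.5 kb past the start (chr3:30625669-30627047). It ranked 31.1, 16.8 and 6.03 untreated and 56.9, 53.5 and 56.3 with NaBu, so that the groups stood apart (37.6 ± 7.26, adjusted p = 0.00503). In the NaPr experiment it ranked 18.5, 0 and 0 untreated and 4.57, 30.1 and 31.6 treated, and the groups overlapped. A second region, 24.2 kb past the start, had no peak in any untreated library and ranked 13.3, 31.3 and 19.9 with NaBu (21.5 ± 5.59, adjusted p = 0.0174).

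A further TGFBR2 region shows how the experiments differed before treatment. An intronic region 60.8 kb past the start had no peak in the 3 untreated libraries of the NaPr experiment and ranked 47.8, 21.6 and 48.0 with NaPr. The change of 39.2 ± 11.1 was not called (adjusted p = 0.0649), although it was called with ranks over all tested regions (adjusted p = 0.0384). In the NaBu experiment the same region ranked 55, 64.6 and 65.8 untreated and 70, 73.9 and 79.1 with NaBu, a gain of 12.6 ± 3.73 (adjusted p = 0.0297). The untreated levels therefore stood far apart between the experiments, which differ in date and depth.

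SMAD2 (chr18:47808957-47931146, minus strand) had 6 regions. The start region ranked 89.8, 87.0 and 85.4 untreated against 82.0, 85.5 and 78.1 with NaPr (−5.53 ± 2.03, adjusted p = 0.133), and 87.7, 81.5 and 84.4 untreated against 84.4, 79.9 and 79.6 with NaBu (−3.23 ± 1.95, adjusted p = 0.219). The groups overlapped in both experiments, and summit tags scaled by the background were −0.54 on the log2 scale after NaBu (adjusted p = 0.00409). The only call among 6 regions tested after NaBu was a gain of 25.8 ± 6.09 (adjusted p = 0.0117) 15 kb upstream, from 27.5, 24.3 and 21.7 to 42.6, 50.7 and 57.8.

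SMAD3 (chr15:67063763-67195173) carried the most regions, 51, and the most calls. Its start region (chr15:67064874-67066516) lost rank after both compounds. With NaPr it went from 81.0, 86.1 and 84.5 to 71.8, 72.1 and 72.9, and every treated library lay below every control (−11.6 ± 2.18, adjusted p = 0.0170). With NaBu it went from 62.3, 52.0 and 45.4 to 39.3, 16.3 and 30.4, again without overlap (−24.6 ± 7.60, adjusted p = 0.0345). Recovered tags at the summit were 170, 93 and 96 untreated and 62, 49 and 57 with NaBu. The NaBu call was lost when regions were built from 250 bp on both sides of each summit (3.34, adjusted p = 0.428), when ranked by fold (−5.97, adjusted p = 0.159), and when untreated replicate 1 or 2 or NaBu replicate 2 or 3 was left out (adjusted p from 0.0796 to 0.120). The NaPr call was lost when any library except untreated replicate 1 was left out (adjusted p from 0.0592 to 0.0945).

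The sequence before the SMAD3 start is given because this start, with that of TGIF1, was called lower after both compounds. It is 79.3% G and C. Capitals mark the letters GGGCGG, an SP/KLF-type box, and GGCGC, a GC-rich SMAD-type site, on either strand, and the 2 kinds of match can overlap.

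SMAD3, chr15:67065452-67065601, plus strand: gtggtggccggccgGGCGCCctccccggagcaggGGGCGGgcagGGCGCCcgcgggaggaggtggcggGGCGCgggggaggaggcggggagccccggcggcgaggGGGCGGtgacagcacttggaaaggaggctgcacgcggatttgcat

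These 150 bases hold 2 matches to GGGCGG and 5 to GGCGC. At least 1 GGGCGG is found in 14.2% of the 200-bp windows around the summits of all tested regions and in 45.0% of RefSeq promoters (GRCh38.p14, 250 bases before to 50 after the start). For GGCGC the shares are 18.2% and 48.6%.

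Around the SMAD3 start, losses after NaBu extended to the smaller peaks on both sides. Regions 3.39, 2.92 and 2.47 kb upstream and 1.62 and 1.99 kb downstream each had a peak in all 3 untreated libraries of the NaBu experiment and in no NaBu library. The largest of these losses was 2.92 kb upstream (chr15:67062526-67062740), from 37.5, 44.1 and 43.5 to 0, 0 and 0 (−41.7 ± 5.23, adjusted p = 0.000924). Its summits stood 3.18, 3.43 and 3.48 times above the local background, which was 33.3, 22.3 and 24.9 tags. One region between them, 1.10 kb upstream, did not move by more than its spread (2.60 ± 2.96, adjusted p = 0.505). In the NaPr experiment the 3 upstream regions had no peak in any library, treated or not. The bases around the summit of the region 2.92 kb upstream hold no match to the AP-1, SMAD and SP/KLF motifs sought, on either strand.

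SMAD3 upstream flank, chr15:67062606-67062740, plus strand: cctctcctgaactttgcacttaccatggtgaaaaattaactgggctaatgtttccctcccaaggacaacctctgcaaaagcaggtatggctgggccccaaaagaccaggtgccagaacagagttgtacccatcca

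Deeper in the gene, SMAD3 regions moved both ways. The region 39.9 kb past the start (chr15:67105237-67106025), in an intron, was the only member region called higher after NaPr. It ranked 82.7, 83.0 and 77.7 untreated and 93.0, 90.7 and 90 with NaPr (10.1 ± 1.72, adjusted p = 0.0115), and 78.7, 69.4 and 81.2 untreated and 89.1, 90.4 and 91.1 with NaBu (13.8 ± 2.72, adjusted p = 0.00548). The treated libraries lay above the untreated ones in both experiments. Fold enrichment was 7.28, 7.70 and 7.46 untreated and 9.81, 9.13 and 10.1 with NaPr, and 9.33, 6.87 and 9.11 untreated and 10.9, 11.4 and 11.6 with NaBu. Ranked by fold, the NaBu gain was called (adjusted p = 0.0306) and the NaPr gain was not (adjusted p = 0.519). The NaPr call held in 2 of the 6 fits with 1 library left out, and the NaBu call in all 6. The 150 bases around its summit hold no match to any of the motifs sought (TGANTCA for AP-1, GTCTAGAC, CAGAC and GGCGC for SMADs, GGGCGG for SP/KLF), which says nothing of other factors.

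SMAD3 intron, +39.9 kb, chr15:67105416-67105565, plus strand: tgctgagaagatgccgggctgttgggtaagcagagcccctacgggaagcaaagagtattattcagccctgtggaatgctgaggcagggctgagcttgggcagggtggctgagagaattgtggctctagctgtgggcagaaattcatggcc

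The largest SMAD3 loss after NaBu lay 82.9 kb past the start (chr15:67148243-67148634), in an intron, from 52.1, 66.8 and 66.8 to 0, 1.29 and 19.9 (−54.8 ± 7.68, adjusted p = 0.00137). On regions built from summits the change was −2.72 and was not called (adjusted p = 0.0741). Ranked by fold it was −12.2 (adjusted p = 0.0189). In the NaPr experiment this region had a peak in 1 untreated library of 6 and was not tested. Its sequence holds 1 match to CAGAC, marked in capitals on the strand that reads GTCTG.

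SMAD3 intron, +82.9 kb, chr15:67148426-67148575, plus strand: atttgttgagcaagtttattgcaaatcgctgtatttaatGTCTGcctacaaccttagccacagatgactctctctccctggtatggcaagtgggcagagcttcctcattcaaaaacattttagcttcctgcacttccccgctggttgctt

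Another intronic region, 79.1 kb past the start, rose from 32.2, 34.2 and 32.6 to 64.2, 61.2 and 61.4 with NaBu (29.3 ± 4.51, adjusted p = 0.00197). With NaPr it stayed between 76.7 and 80.4, against 71.0 to 79.7 untreated.

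SMAD4, the common partner of the signalling SMADs (chr18:51028528-51085045), had no peak listed near its canonical start. SW480 is known as a line that lacks SMAD4 protein. No library listed a peak within 1 kb of the canonical start (position 51030213 of chromosome 18), and the gap without any region ran from 50973785 to 51051074, 77.3 kb. The bases around this start are rich in CpG (68.9% G and C in 1 kb), and among 11325 such starts of protein-coding genes (at least 55% G and C, observed to expected CpG of at least 0.65) 88.1% had a peak in all 12 libraries and 5.0% had no region at all. The nearest region with a peak in all 12 libraries, 61.4 kb upstream, held the start of ELAC1. Peak lists cannot tell absent DNA from closed chromatin, and 0.179% to 0.326% of the numbered lines of each list were missing. Only 4 weak regions fell in the SMAD4 window and none was called. The strongest lay 21.1 kb past the canonical start, within 1 kb of another annotated SMAD4 transcript start. It ranked 32.8, 41.7 and 36.1 untreated and 56.5, 46.5 and 39.9 with NaBu (10.8 ± 6.19, adjusted p = 0.199). In the NaPr experiment it had a peak in 1 treated library only.

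**Figure D3:**
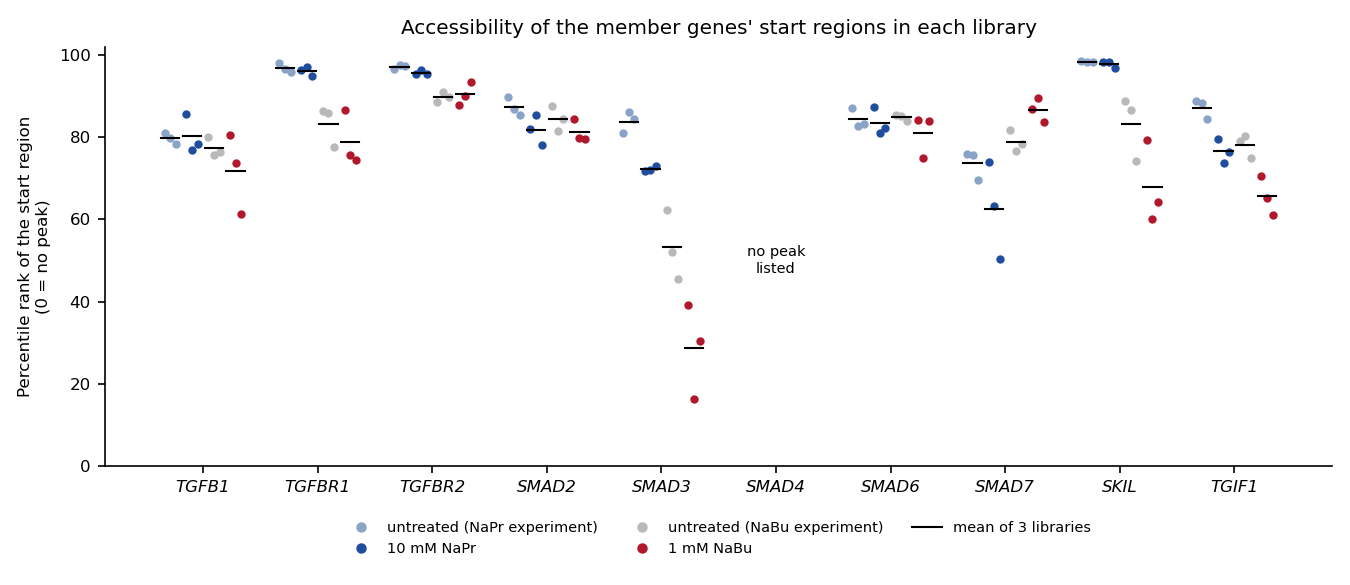
Points give the percentile rank of the region at each gene's start in each of the 12 libraries (vertical axis, 0 for no peak), and short lines the mean of 3 libraries. Light points are untreated and dark points treated, blue tones for the NaPr experiment and grey and red for the NaBu experiment. SMAD3 and TGIF1 lie lower in every treated library of both experiments, SMAD7 lies higher in every NaBu library, and SMAD4 has no point.

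Of the inhibitory SMADs, SMAD6 (chr15:66702236-66782849) had no call at its start on ranks. The start region ranked 87.2, 82.7 and 83.3 untreated and 87.4, 81.1 and 82.4 with NaPr, and 85.5, 85.3 and 83.9 untreated and 84.2, 75 and 84.0 with NaBu. The groups overlapped for both compounds (−0.797 ± 2.02, adjusted p = 0.842, and −3.81 ± 2.37, adjusted p = 0.231), while summit tags scaled by the background were −0.42 on the log2 scale after NaBu (adjusted p = 0.00863). Of 16 regions tested after NaBu, 4 were higher and 2 lower. The largest gain lay in an intron 19.5 kb past the start (chr15:66721611-66721953), with no peak in the 3 untreated libraries and ranks of 47.2, 55.3 and 59.3 with NaBu (54.0 ± 5.81, adjusted p = 0.000571). The summits held 38, 50 and 52 tags, 7.79 to 9.77 times above the background. The lists of the NaPr experiment reach weaker peaks, and there the region was already listed without treatment, at 30.4, 41.2 and 19.6. It ranked 46.9, 52.2 and 47.1 with NaPr (18.3 ± 10.2, adjusted p = 0.298). Every NaPr library lay above every control there, yet the call failed.

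Its sequence is printed because it holds the letters of an AP-1 site (TGANTCA, in capitals). At least 1 such match is found in 19.0% of all tested regions, in 9 of the 30 member regions higher after NaBu and in 5 of the 30 lower. The shares over all regions were 25.8% of those higher and 14.5% of those lower, near the members' 30% and 16.7%.

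SMAD6 intron, +19.5 kb, chr15:66721647-66721796, plus strand: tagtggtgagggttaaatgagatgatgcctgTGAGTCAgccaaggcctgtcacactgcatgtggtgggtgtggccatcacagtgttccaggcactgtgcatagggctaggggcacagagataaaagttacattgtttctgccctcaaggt

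SMAD7 (chr18:48919853-48950965, minus strand), itself a target of TGF-β signalling, changed at and after its start. The upstream region (chr18:48951414-48953100, summit 1.22 kb before the start) gained rank after NaBu, from 81.7, 76.7 and 78.4 to 86.9, 89.5 and 83.7, all above the controls (7.77 ± 1.88, adjusted p = 0.0131). The call was lost without NaBu replicate 2 (adjusted p = 0.0582), with the top 50000 intervals of each library (adjusted p = 0.0545) and in a fit of all 12 libraries (adjusted p = 0.213). Fold enrichment rose from 8, 6.79 and 7.58 to 12.2, 14.1 and 11.2. The summit tags overlapped, at 265, 144 and 170 untreated and 166, 180 and 147 with NaBu. The local background was 32.3, 20.4 and 21.6 tags untreated and 12.7, 11.8 and 12.2 with NaBu, without overlap. On summit tags scaled by the genome-wide background the change was −0.14 on the log2 scale (adjusted p = 0.334). With NaPr the region ranked 75.9, 75.6 and 69.7 untreated and 74, 63.2 and 50.2 treated, and the groups overlapped (−11.2 ± 5.40, adjusted p = 0.238).

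Of the 145 tested member regions, this is the only one with the palindrome GTCTAGAC, the classic SMAD-binding element, in the 200 bases around its summit. The palindrome is in 0.151% of all tested regions and in 0.202% of RefSeq promoters. Among the members' RefSeq promoters it is in that of SMAD6 and not in that of SMAD7.

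Past the SMAD7 start, regions were lost. A region 0.975 kb into the gene ranked 49.0, 25.5 and 43.1 untreated and had no peak with NaBu (−39.2 ± 6.95, adjusted p = 0.00349). In the NaPr experiment it ranked 39.5, 30.8 and 33.0 untreated and likewise had no peak with NaPr (−34.4 ± 9.45), a change that missed the threshold (adjusted p = 0.0586). The region 17.2 kb past the start (chr18:48933207-48934227), near another annotated SMAD7 transcript start, was called after both compounds. It went from 59.8, 51.5 and 46.9 to 0, 16.4 and 0 with NaPr (−47.2 ± 11.4, adjusted p = 0.0395) and from 59.6, 54.9 and 60.9 to 0, 0 and 2.83 with NaBu (−57.5 ± 5.49, adjusted p = 0.00041). On ranks of −log10 p, where an absent peak counts as 0, it was the largest loss among the member regions after either compound. Ranked by fold, the change was −35.05 with NaPr (adjusted p = 0.165) and −13.1 with NaBu (adjusted p = 0.00827). Untreated summits stood 3.94 to 4.76 times above the local background. The NaPr call failed with any 1 library left out (adjusted p from 0.0725 to 0.0980), and the NaBu call held in all 6 such fits but not with the top 50000 intervals (−11.7, adjusted p = 0.0922).

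Between these losses lay a gain. The intronic region 11.9 kb past the SMAD7 start ranked 0, 4.67 and 0 untreated and 51.9, 42.4 and 54.2 with NaBu (47.9 ± 5.90, adjusted p = 0.000866). With NaPr it ranked 54.7, 18.2 and 46.6 against 0, 33.3 and 0, and the groups overlapped (28.7 ± 14.2, adjusted p = 0.247). Over the whole gene, 3 of 17 tested regions were higher and 6 lower after NaBu, and 0 of 19 higher and 1 lower after NaPr.

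**Figure D4:**
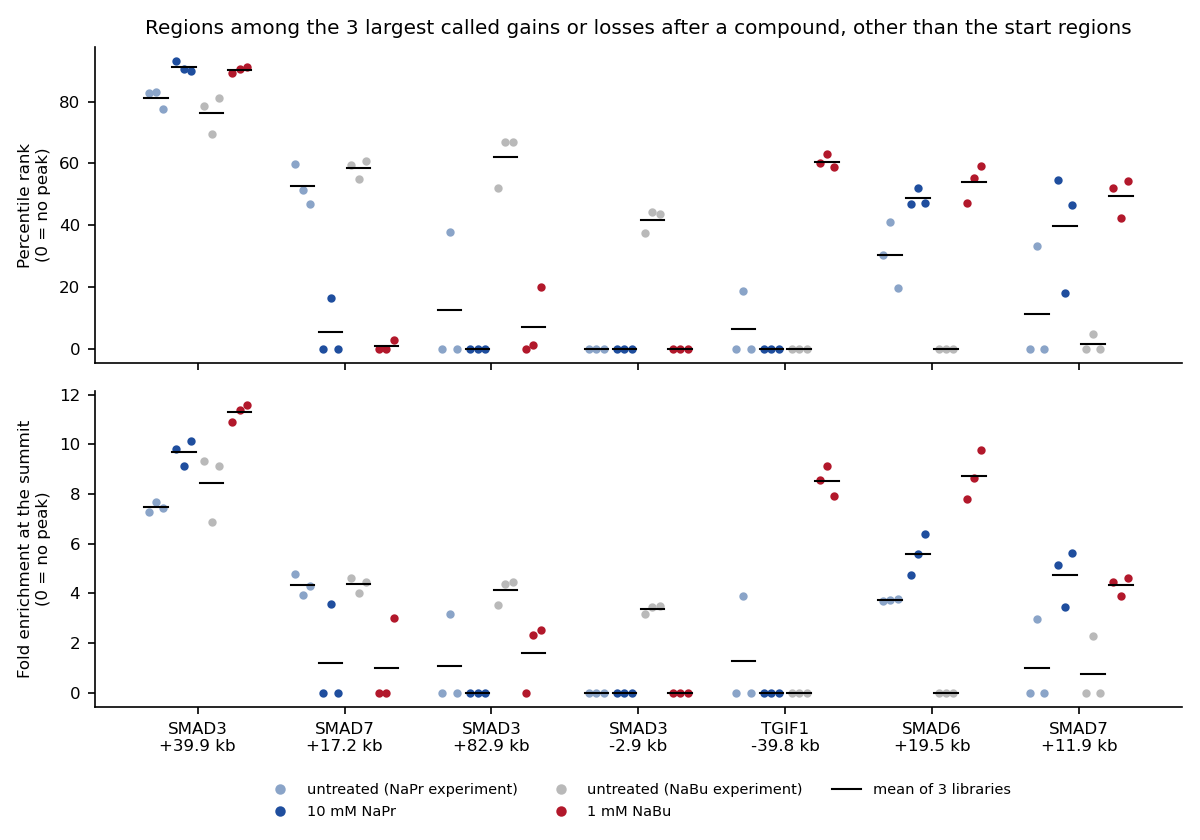
The upper panel gives the percentile rank and the lower panel the fold enrichment at the summit over the local background (both 0 where no peak is listed) in each library, for the 7 regions that were among the 3 largest called gains or losses after either compound and are not a gene's start region. Labels give the gene and the distance of the summit from its start. The SMAD7 region at +17.2 kb drops in the treated libraries of both experiments, and the TGIF1 region 39.8 kb upstream is listed in all 3 NaBu libraries and in 1 of the other 9.

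Of the co-repressor genes, SKIL (chr3:170357342-170396835) had a start region near the top of the NaPr experiment's lists, at 98.5, 98.3 and 98.4 untreated and 98.3, 98.3 and 97.0 with NaPr. In the NaBu experiment it ranked 88.7, 86.7 and 74.3 untreated and 79.4, 60 and 64.3 with NaBu, and the groups overlapped. The change of −15.3 ± 5.37 missed the threshold (adjusted p = 0.0540), was called with ranks over all tested regions (−14.9, adjusted p = 0.0332), and on summit tags scaled by the background was −1.14 on the log2 scale (adjusted p = 0.000247). Tags were 323, 190 and 139 untreated and 127, 71 and 80 with NaBu.

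TGIF1 (chr18:3411608-3459978) fell at its start and rose upstream. The start region (chr18:3448726-3450421) ranked 88.8, 88.3 and 84.4 untreated and 79.6, 73.8 and 76.3 with NaPr (−10.6 ± 2.06, adjusted p = 0.0194), and 79.2, 80.3 and 74.9 untreated and 70.5, 65.3 and 61.1 with NaBu (−12.5 ± 2.91, adjusted p = 0.0110). The groups did not overlap in either experiment. Summit tags fell from 382, 258 and 262 to 170, 159 and 148 with NaBu. As at SMAD3, the NaBu change was not called on regions built from summits (1.77, adjusted p = 0.113), nor was the NaPr change (−1.51, adjusted p = 0.337). Ranked by fold, the NaBu change was −6.10 (adjusted p = 0.149), and no member's start region was called lower. The NaBu call held in all 6 fits with a library left out, and the NaPr call only without NaPr replicate 1. Of 6 regions tested within 5 kb, 3 were lower after NaBu.

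Upstream of that start, 5 TGIF1 regions were called higher after NaBu, at 24.6, 25.8, 39.8, 46.9 and 52.6 kb. The largest gain, and the largest of all member regions, lay 39.8 kb upstream (chr18:3410012-3410761), close to another annotated TGIF1 start. It had no peak in the 3 untreated libraries and ranked 60, 62.9 and 58.9 with NaBu (60.6 ± 5.37, adjusted p = 0.000347), with 58, 65 and 61 tags at the summit, 7.91 to 9.12 times above background. With the top 50000 intervals of each library the gain was 9.26 and was not called (adjusted p = 0.0597). In the NaPr experiment 1 untreated library listed it, at 18.8, and no treated library did. The 150 bases around its summit hold 1 match to CAGAC, a half-site of the SMAD element, which is in 39.1% of all tested regions.

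The local background fell after NaBu at the starts of SMAD3 and TGIF1, which were called lower, and at that of SMAD7, which was called higher. At SMAD3 it went from 35.3, 24.0 and 26.9 tags untreated to 15.3, 14.8 and 15.4 with NaBu. At the 75 member regions with a peak in all 6 libraries of the NaBu experiment, the background around the summit had a median of 13.3 tags untreated and 9.28 with NaBu, and all 3 NaBu libraries lay below all 3 untreated ones at 39 of them and above at 6. Over all 72559 regions with such peaks the medians were 6.03 and 5.90 tags, and 27.0% lay below and 12.2% above. The part of this shift in the ranks was not tested. Member regions lower after NaBu had a median of 56.0% G and C in the 200 bases around the summit and those higher 48.5%, against 54.0% and 50.5% for all regions called lower and higher. The start regions of all protein-coding genes moved little in the median on ranks, by −0.849 percentile points after NaPr and −0.599 after NaBu, with 5.57% and 20.1% called lower and 0.935% and 10.3% called higher.

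Among 35 further genes of the pathway, the start region was tested for 33 after NaBu, and 6 were higher and 12 lower. That is 18.2% and 36.4%, against 10.3% and 20.1% for the starts of all protein-coding genes. Ranked by fold, 5 were higher and 6 lower, against 13.2% and 8.98% for the starts of all protein-coding genes. Regions in their bodies and 20 kb on both sides were higher at 78 and lower at 78 of 393 after NaBu, and higher at 11 and lower at 10 of 348 after NaPr. That is 19.8% in each direction after NaBu, against genome-wide shares of 24.0% for gains and 13.1% for losses. For NaPr the shares are 3.16% and 2.87%, against 3.1% and 2.22% genome-wide. Transcriptional targets of the pathway had 3 of 9 start regions higher after NaBu and 1 lower, against 10.3% and 20.1% for all protein-coding starts. ID2, an inhibitor of helix-loop-helix factors, rose by 8.28 ± 1.23 (adjusted p = 0.00173) and CCN2, a matrix-associated growth factor, by 6.03 ± 1.86 (adjusted p = 0.0342). On summit tags scaled by the background neither was called (log2 changes of 0.13, adjusted p = 0.204, and 0.20, adjusted p = 0.148). The CCN2 call held in 1 of the 6 fits with a library left out and was lost with ranks over all tested regions (adjusted p = 0.114). TGFBI, which encodes a secreted matrix protein induced by TGF-β, fell from 81.1, 77.6 and 83.4 to 66.3, 51.1 and 55.9 (−22.9 ± 3.94, adjusted p = 0.00308), and after NaPr it fell by 5.10 percentile points (adjusted p = 0.0396).

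The starts of the SMADs that serve BMP receptors, SMAD1, SMAD5 and SMAD9, were all 3 lower after NaBu, by −17.8, −13.6 and −22.6 percentile points, and none was called after NaPr. Ranked by fold, SMAD5 was still called and SMAD1 and SMAD9 were not (adjusted p = 0.0610 and 0.0554). Of the receptors, 3 of 7 were lower (TGFBR3, BMPR1A and BMPR2) and none higher, and by fold BMPR1A and BMPR2 were not called (adjusted p = 0.755 and 0.252). The largest change of the list on ranks of −log10 p was at the start of LTBP3, which encodes a protein that holds latent TGF-β in the matrix. It ranked 78.5, 82.3 and 82.9 untreated and no peak was listed with NaBu (−81.2 ± 5.08, adjusted p = 0.000193), though the untreated summits of 369, 268 and 321 tags were 4.59 to 4.90 times above their background. The absent peak counts as 0 in this change. Ranked by fold, the NaBu change at LTBP3 was −19.5 (adjusted p = 0.00714), smaller than that at TGFBI (−32.4). With NaPr the LTBP3 start went from 84.9, 78.6 and 77.6 to 32.7, 59.3 and 48.3 (−33.6 ± 6.30, adjusted p = 0.0167), a call that held in 1 of the 6 fits with a library left out. After NaPr the only other start called beside TGFBI was that of ACVR2B, an activin receptor (−5.23 ± 1.27, adjusted p = 0.0401), and neither of these calls held with any 1 library left out.

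**Figure D5:**
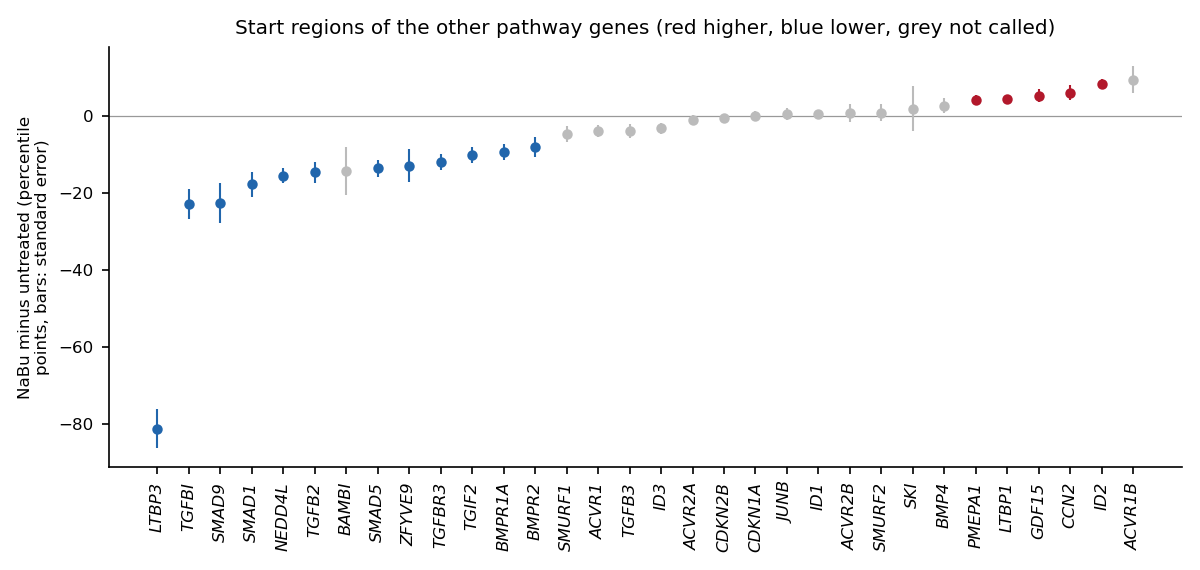
Points give the change in rank after NaBu (vertical axis, percentile points) at the start region of 32 of the other pathway genes tested, ordered by size, with bars for the standard error. Red is higher, blue lower and grey not called by limma. ID2 has the largest called gain plotted and LTBP3 the largest loss.

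The changes after both compounds were set side by side at 91 member regions tested in both experiments. The 4 regions called after NaPr were all called in the same direction after NaBu, and no region was called in opposite directions. NaBu called 37.1% of all regions tested. The same agreement was not counted over all regions, so it cannot be called particular to these genes. The difference of the changes (NaBu minus its untreated libraries, less NaPr minus its own) was called at 20 of 145 member regions, 13.8% against 12.0% of all regions. It was 10 regions in each direction. Dose, date and compound differ together between the experiments and cannot be told apart.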

How the data were processed

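ATAC-seq peak lists of 12 SW480 libraries were used, and 8 libraries of the mouse line CT26 were not used here. Per the submitters' processing notes and the methods, the authors trimmed reads with cutadapt 1.9.1, aligned them to hg38 with Bowtie2 2.3.1 and called peaks in each library with MACS2 2.1.0. The deposited lists give each summit's fold enrichment (a ratio to local background), its −log10 p and −log10 q, and its offset, on lines numbered to 300000, of which 537 to 978 per list were missing. Intervals were merged over the 12 lists. Regions with a peak in at least 2 of 6 libraries were tested with limma 3.58.1 (R 4.3.3, trend, two-sided) on percentile ranks of the −log10 p, each experiment alone. Tags were recovered from fold and p by a Poisson test (pseudocount of 1 in the fold). In a test of the NaBu comparison on 20000 simulated regions, 37.0% of shifts of 30 percentile points and 0.0% of shifts of 10 were called. Only 100 regions were moved by each amount, whereas in the data 37.1% of all regions were called after NaBu, which eases the adjusted threshold. These shares therefore do not give the sensitivity in the data, where shifts below 10 were called (7.77 at the SMAD7 start). Small shifts can still be missed. Named were every start region, the 3 largest called gains and losses per compound, and the same for starts of other pathway genes. All other regions named were chosen after their values were seen. Members, lists and motifs were chosen with earlier results of these data known. One pathway gene and one marker that these rules cover are counted but not reported by name here.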

Additional observations from a re-analysis of the deposited data

Results flagged for a closer look

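The difference between the NaBu and the NaPr change was tested in one limma model over the 12 libraries, and 20 member regions passed at an adjusted p below 0.05. Among the regions named by rule, 3 did, all of them named for the size of their NaBu change. At the TGIF1 region 39.8 kb upstream of the start the difference was 66.9 percentile points, with a peak in all 3 NaBu libraries and in 1 untreated library of the NaPr experiment. At the SMAD6 intronic region 19.5 kb past the start it was 35.6, where the NaPr experiment listed a peak in all 6 libraries and the NaBu experiment only in the treated ones. The lists of the NaPr experiment reach weaker peaks. At the SMAD3 region 2.92 kb upstream of the start the difference was −41.7. No library of the NaPr experiment listed a peak there, so that experiment could show no loss. The difference at this region only repeats the NaBu change. With any 1 of the 12 libraries left out, these 3 calls held. With the top 50000 intervals of each library the TGIF1 difference was 9.26 and was not called (adjusted p = 0.0546). Groups of 3 libraries were too small for a check on single outlying libraries.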

How the results depend on the processing

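Counts are of called regions, for all regions, the member regions and the other pathway genes in turn. After NaPr, against 6598, 4 and 21, ranking by fold called 0, 0 and 0 (20921 of all regions at an unadjusted limma p below 0.05), a peak in at least 1 library 1312, 1 and 6, ranks over all tested regions (chosen after seeing the data) 11650, 9 and 34, and leaving out a library 0 to 3179, 0 to 2 and 0 to 6. A fit of all 12 libraries called 18129 of all regions and 15 member regions, tags scaled by the median 20947 and 21, tags scaled by background 7 member regions, and 50 kb flanks 8. After NaBu, against 45903, 60 and 156, the top 50000 intervals gave 22587, 32 and 83, a peak in all 6 libraries 29971, 36 and 103, ranking by fold 37 member regions, and leaving out a library 36865 to 42215, 44 to 55 and 129 to 152. The changes differed at 19704 regions and 20 member regions, at 13 member regions by fold, and with a library left out at 17131 to 20005 and 15 to 23. Replicate numbers did not pair the libraries, and the replicate block gave 7647, 5 and 23 after NaPr, 47756, 63 and 167 after NaBu, and 14771 and 16 for the difference. Signs turned at start regions. After NaBu these were SMAD2 by fold (2.51), SMAD3 and TGIF1 with summit windows (3.34 and 1.77), SMAD7 on tags (−0.14 with both scalings) and TGFBR2 (−0.41 with the top 50000 intervals, −0.25 and −0.24 on tags, −0.21 with ranks over all tested regions, −0.83 to 1.95 with a library left out, lowest without NaBu replicate 3). After NaPr they were SKIL by fold (1.62), SMAD6 without untreated replicate 1 or NaPr replicate 2 (−2.69 to 0.59 over the libraries left out), and TGFB1 on tags scaled by the median (−0.24) and without untreated replicate 3 or NaPr replicate 1 (−2.06 to 2.28 over the libraries left out). The cause was not tested.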
